A study of Mus musculus with 4 samples.

Results

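Notch signalling was examined through 10 genes, chosen by name and covering the pathway from the cell surface to the fate decision. They were the receptors Notch1 and Notch2, the ligands Dll1, Dll4, Jag1 and Jag2, the DNA-binding effector Rbpj, and the basic helix-loop-helix factors Hes1, Hes6 and Atoh1. All 10 were among the 52459 genes of the count table, and all 10 passed the filter on low counts, which kept 13692 genes. The data were 4 RNA-seq libraries of intestinal stem cells (ISCs) from wild-type female C57/Bl6 mice, 2 of young animals (ISC_2mth, 2 months old) and 2 of old animals (ISC_22mth, 22 months old). Each library came from ISCs that had been pooled from 5 animals, sorted from small intestinal crypts by surface markers (the SM6 strategy, whose gate takes EPCAM+ and CD166+ epithelial cells of medium CD24, high CD44, high EPHB2 and low GRP78, to part stem cells from their progeny, and leaves out CD31+ endothelial and CD45+ blood cells), amplified along the whole transcript, and sequenced. Neither age carried a transgene or reporter, and no library could show how single animals within a pool differed.

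Notch receptors are activated by ligands on a neighbouring cell. Cleavage then frees the intracellular part of the receptor, which enters the nucleus and binds RBPJ to switch on targets such as Hes1. In the intestinal crypt, HES1 represses Atoh1, the factor that commits progenitors to the secretory lineages (Paneth, goblet, enteroendocrine and tuft cells). Stem cells therefore keep Notch active and Atoh1 low, and receive ligand from secretory neighbours, among them DLL1 and DLL4 on Paneth cells and secretory progenitors.

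The promoter of Atoh1 is shown because HES1 represses this gene and the window held sites of the kind HES factors bind. Windows from RefSeq (GRCm38.p6, 250 bases before to 50 bases after each start) were found for 9 of the 10 genes, 12 windows in all, and none was found for Hes1. On both strands, CACGNG (the class C site bound by HES factors), CACNAG (the N-box) and GTGGGAA (the RBPJ site) were searched. The Atoh1 window held 4 matches of CACGNG, against at least 4 in 0.40% of all 32851 windows, and 1 match of CACNAG. The stretch from chr6:64728875-64729154 on the plus strand, 250 bases before to 30 bases after the start, follows with these 5 matches in capitals, which do not overlap.
Atoh1: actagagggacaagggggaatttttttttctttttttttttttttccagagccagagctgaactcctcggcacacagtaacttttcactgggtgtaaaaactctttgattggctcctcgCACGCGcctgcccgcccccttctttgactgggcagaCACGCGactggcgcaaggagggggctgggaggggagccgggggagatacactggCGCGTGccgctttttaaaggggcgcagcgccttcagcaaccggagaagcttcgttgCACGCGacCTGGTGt
At least 1 match of CACGNG was present in 8 of the 12 windows (27.5% of all windows), of CACNAG in 6 (42.5%) and of GTGGGAA in 0 (6.4%). The windows compared were not matched for GC content, which was between 55.7% and 86.0% in the 12 windows, and CACGNG itself holds a CG pair. These matches describe letters in short windows, and binding was not measured.

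Reads counted on genes came to between 11662654 and 15975698 per library. Mitochondrially encoded genes took 62.6% and 65.7% of them at 2 months and 73.8% and 72.9% at 22 months, which left between 3852178 and 4593004 counts per library for all other genes. Levels are given as normalized CPM, counts scaled to equal library totals with TMM factors, for which 3 counts corresponded to between 0.199 and 0.246 CPM. The stem cell markers were present in every library, with Lgr5 between 206 and 248 and Olfm4 between 1110 and 1300 normalized CPM. The goblet cell mucin Muc2 was present as well, between 1010 and 1440. Of 10 endothelial and stromal markers, 6 had at most 3 counts in each pool, 4 of them 0 in all (Cdh5, Kdr, Col1a2 and Pdgfra). The endothelial genes Vwf, with 3, 19, 13 and 7 counts in the order young then old, and Pecam1, with 1, 0, 1 and 7, were detected. The leukocyte marker Ptprc had 2 counts in 1 old pool and 0 in the others. In pooled cells, fewer cells of a type and less RNA per cell cannot be told apart.

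None of the 10 genes differed between ages at a false discovery rate (FDR) under 0.05 by edgeR's quasi-likelihood test, where 2.26% of all genes tested did (1.63% higher and 0.628% lower at 22 months). The same count of 0 was given by limma voom with sample quality weights and by DESeq2. The likelihood ratio test of edgeR, which the study's methods also name, called 1 gene, Jag2 (FDR = 0.0273). Jag2 passed the filter on low counts only through the young pools, where it was high. Its calls and p-values are therefore given as description alone. An unadjusted p under 0.05 was reached by 4 of the 10, Jag2 and Notch1 at lower values at 22 months and Atoh1 and Rbpj at higher values, against 16.9% of all genes. Both old pools lay on one side of both young pools for 6 of the 10, against 47.6% of all genes, with 4 higher (24.0% of all genes) and 2 lower (23.6%) at 22 months. The log2 fold change (22 months minus 2 months) was above 0 for 6 of the 10 and for 49.5% of all genes. Its median was 0.07 over the 10 genes and 0.00 over all genes tested. Scaling by total counts alone moved the median of all genes by -0.50, so that all 10 values shifted down together. Under that scaling Hes1, Hes6, Dll4 and Jag1 changed sign, and values below are relative to the TMM scale.

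**Figure D1:**
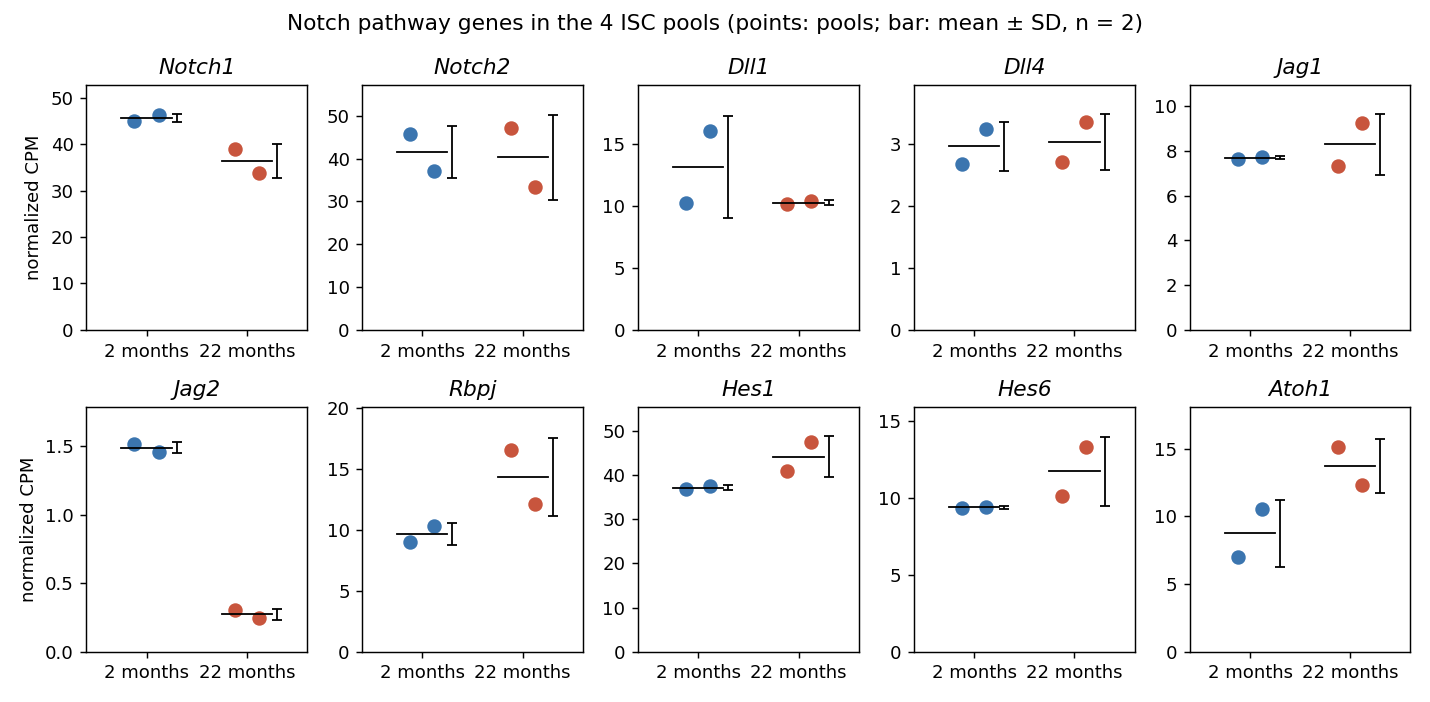
Normalized CPM of each gene (vertical axes, starting at 0) in the 2 young and 2 old pools (points, replicate 1 left of replicate 2), with horizontal bars for the mean and error bars for the SD (n = 2). As a fold change, Jag2 shows the widest gap, with both old pools near 0.3 CPM or below. The pools of Notch2, Dll1, Dll4 and Jag1 overlap between ages.

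The receptors and Hes1 were the most heavily counted of the 10 genes. Notch1 had 654 and 697 counts at 2 months and 514 and 413 at 22 months, equal to 45.1 and 46.2 against 38.9 and 33.8 normalized CPM. Both old pools were below both young pools. The mean went from 45.7 ± 0.753 (SD, n = 2 pools) to 36.4 ± 3.59 CPM, a log2 fold change of -0.33 (95% interval -0.61 to -0.04, FDR = 0.228 by edgeR's quasi-likelihood test). After GC and length offsets, this value shrank to -0.10 (FDR = 0.803). Notch2, the second receptor of the crypt, had 45.8 and 37.2 CPM at 2 months and 47.2 and 33.3 CPM at 22 months. The ages overlapped entirely, and the replicate pools of each age were further apart than the age means of 41.5 ± 6.06 and 40.2 ± 9.88 CPM. Its log2 fold change was -0.04 (interval -0.39 to 0.30, FDR = 0.924), and it changed sign when ISC_2mth replicate 1 was left out (0.11) or ISC_22mth replicate 2 (0.19). The number of Notch1 counts per Notch2 count was 0.985 and 1.24 at 2 months and 0.824 and 1.02 at 22 months, so that the ages overlapped in this ratio. Exons of Notch1 overlap those of 2 noncoding genes on the opposite strand over 1482 bases in all, and exons of Notch2 those of 1 gene on the same strand over 541 bases, and the strand setting of the counting was not given in the sources used here.

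Of the ligands, Jag2 had by far the lowest level and, as a fold change, the widest gap between ages. It had 22 and 22 counts in the young pools and 4 and 3 counts in the old pools, equal to 1.52 and 1.46 against 0.303 and 0.246 normalized CPM. Old values were all below young values, and they stood close to the 3 counts taken as the floor. The log2 fold change was -2.40 (standard error 0.80, 95% interval -4.08 to -0.72), a level 5.27-fold lower at 22 months, with FDR = 0.129 by the quasi-likelihood test. From the summed counts, 7 at 22 months and 44 at 2 months, the old level was 0.185 times the young level (exact Clopper-Pearson interval 0.0704 to 0.414, counting error only). Jag2 passed the filter only through the young pools, where it was high, and its old counts could not have kept it in the test. Its FDR values are therefore given as description alone. The size was similar with each pool left out (-2.56 to -2.26), and the FDR without a filter on low counts was 0.0496. Over the 14 alternatives in which Jag2 was tested, the FDR ranged from 0.00936 (total counts) to 0.398. The 10 endothelial and stromal markers summed to 2.41 and 3.51 CPM at 2 months and to 3.03 and 1.72 at 22 months, with overlap between ages. Pdgfrb, a receptor of pericytes, which the EPCAM+ gate should leave out, had 28, 31, 17 and 2 counts in the order young then old (log2 fold change -1.43, FDR = 0.297). Acta2, an actin of smooth muscle and pericytes, had 1, 2, 8 and 5 counts and was not tested. The part of such cells in the Jag2 values was not tested. Jag2 occupies bases 112907819 to 112929776 of chromosome 12 (GRCm38, annotation GENCODE vM21). Its exons overlap no other gene, and 0.00% of its 50-nt stretches were shared with other genes.

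Jag1, the other Jagged ligand, had 7.66 and 7.75 CPM at 2 months and 7.34 and 9.25 CPM at 22 months. One old pool was below and the other above the young pools. The log2 fold change was 0.10 (interval -0.38 to 0.58, FDR = 0.863). As a share of the reads of all 4 ligands, Jag2 took 6.88% and 5.12% at 2 months and 1.48% and 1.06% at 22 months, and Jag1 took 34.7%, 27.2%, 35.8% and 39.8%. There were thus 0.198 and 0.188 Jag2 counts for each Jag1 count at 2 months, and 0.0412 and 0.0265 at 22 months.

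Dll1, a Delta ligand carried by secretory progenitors, had 10.2 and 16.0 CPM at 2 months and 10.1 and 10.4 CPM at 22 months. Both old pools were close to the first young pool, and only the second young pool stood above. The log2 fold change was -0.36 (interval -0.82 to 0.11, FDR = 0.447), and without ISC_2mth replicate 2 it was 0.00. Dll1 remained the most abundant ligand in each pool, with between 44.7% and 56.3% of the ligand counts. Its exons overlap those of a long noncoding gene on the opposite strand over 867 bases. Dll4, a Delta ligand of Paneth cells and of endothelium, had 2.69 and 3.25 CPM at 2 months and 2.72 and 3.36 CPM at 22 months. The pools of both ages covered the same range. The log2 fold change was 0.03, with an interval from -0.72 to 0.79 that allows a difference of up to 1.73-fold upward. Summed over the 4 ligands, the level was 22.1 and 28.5 normalized CPM at 2 months and 20.5 and 23.3 at 22 months, with overlap between ages.

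Rbpj, the nuclear partner of the cleaved receptor, had higher values at 22 months. Counts were 131 and 156 in the young pools and 219 and 148 in the old pools, equal to 9.04 and 10.3 against 16.6 and 12.1 normalized CPM. Both old pools were above both young pools, but the old pools differed more from each other than the nearer old pool did from the young ones. The mean went from 9.69 ± 0.919 to 14.3 ± 3.15 CPM (n = 2 pools per age), a log2 fold change of 0.57 (standard error 0.21, interval 0.13 to 1.00, FDR = 0.169 by edgeR's quasi-likelihood test). Leaving out ISC_22mth replicate 2 gave 0.77 (FDR = 0.0244), and leaving out ISC_22mth replicate 1 gave 0.32 (FDR = 0.549). For each Notch1 count there were 0.200 and 0.224 Rbpj counts at 2 months and 0.426 and 0.358 at 22 months, as follows from the opposite directions of both genes. Of the 50-nt stretches of Rbpj, 10.63% were shared with other genes, beside 16.08% for Dll1, 9.11% for Notch1 and at most 4.33% for the other 7 genes, so that the counts of these genes carry some uncertainty.

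Hes1, the direct Notch target that holds Atoh1 down, was the most abundant of the 10 genes per length of exon. It had 36.8 and 37.6 CPM at 2 months and 40.9 and 47.6 CPM at 22 months. The old pools were above the young pools, by a log2 fold change of 0.25 (interval -0.04 to 0.54, FDR = 0.372), which became 0.14 without ISC_22mth replicate 2. Hes6, a HES relative known to oppose HES1 and to mark secretory progenitors, had 9.31 and 9.41 CPM at 2 months and 10.1 and 13.3 CPM at 22 months. Its young pools were nearly equal, and the first old pool was only slightly above them. The log2 fold change was 0.32 (interval -0.13 to 0.76, FDR = 0.479), which became 0.10 without ISC_22mth replicate 2. Hes6 counts per Hes1 count were 0.253 and 0.250 at 2 months and 0.246 and 0.279 at 22 months.

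Atoh1, the factor that opens the secretory fates, had higher values at 22 months, by a difference close to that of Rbpj. Counts were 101 and 159 at 2 months and 199 and 150 at 22 months, equal to 6.97 and 10.5 against 15.1 and 12.3 normalized CPM. Each old pool exceeded each young pool, and the second young pool was nearer to the second old pool than to the first young pool. The mean went from 8.75 ± 2.52 to 13.7 ± 1.96 CPM (n = 2 pools per age), a log2 fold change of 0.64 (standard error 0.22, interval 0.17 to 1.11, FDR = 0.148 by edgeR's quasi-likelihood test), or 1.56-fold. Leaving out ISC_2mth replicate 1 gave 0.38 (FDR = 0.697), below the 0.48 of Rbpj in that fit, leaving out ISC_2mth replicate 2 gave 0.97 (FDR = 0.0501), leaving out ISC_22mth replicate 1 gave 0.49 (FDR = 0.307), and leaving out ISC_22mth replicate 2 gave 0.78 (FDR = 0.0312). Atoh1 counts per Hes1 count were 0.189 and 0.280 at 2 months and 0.368 and 0.258 at 22 months, so that this ratio overlapped between ages. Atoh1 is a single exon of 2121 bases on chromosome 6 from 64729125 to 64731245, without overlap with other genes.

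Of 5 marker lists for other crypt and villus cells, 4 had medians at 22 months well above that of all genes (0.00), while the goblet cell list did not. The median log2 fold changes were 0.74 for Paneth, 0.79 for enteroendocrine, 0.94 for tuft and 0.84 for enterocyte markers, beside 0.64 for Atoh1. Values above 0 were those of 7 of 8 Paneth, 6 of 6 enteroendocrine, 2 of 3 tuft and 8 of 8 enterocyte markers tested, against 49.5% of all genes. An unadjusted p under 0.05 with higher values was reached by 5 Paneth, 3 enteroendocrine, 1 tuft and 6 enterocyte markers (9.26% of all genes). By the quasi-likelihood test, 1.63% of all genes rose at FDR under 0.05 and 2.26% differed in either direction. The 7 goblet cell markers summed to 1950 and 2560 CPM at 2 months and to 2660 and 2070 at 22 months, and 0 of 7 differed at FDR under 0.05 (0 of 7 also at an unadjusted p under 0.05), with a median log2 fold change of 0.06. The 8 Paneth cell markers summed to 954, 730, 2080 and 814 CPM, in the order young then old, so that ISC_22mth replicate 1 stood above the rest. Of these 8, 2 rose (the defensins Defa17 and Defa24, log2 fold changes 1.11 and 0.87), and 1 had a value below 0 (Mptx2, -0.54, FDR = 0.266). The 8 enteroendocrine markers summed to 27.3, 129, 118 and 81.9 CPM, with overlap between ages, and 1 of the 6 tested (Cpe, 2.15) rose. The 6 tuft cell markers summed to 3.24, 4.97, 10.1 and 5.41 CPM, and 1 of the 3 tested (Dclk1, 3.09) rose, from 4 and 4 counts to 42 and 19. Cpe (11 and 10 counts at 2 months, 42 and 39 at 22 months) and Dclk1 passed the filter on low counts only through the old pools, where they were high, so that their calls, and the medians of both their lists, are given as description alone. The 8 enterocyte markers summed to 326, 433, 818 and 663 CPM, and 3 of 8 (Fabp1, Sis and Fabp2) rose. No marker was left at 0 in all pools in these 5 lists.

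Leaving out a pool ended some of these calls. Without ISC_22mth replicate 1 the log2 fold changes were 0.40 for Defa17, 0.20 for Defa24 and 2.49 for Dclk1 (FDR = 0.117, 0.403 and 0.230). Cpe lost its call without either young pool at nearly the same size (2.25 and 2.05, FDR = 0.0766 and 0.0886), as did Dclk1 without ISC_2mth replicate 1 (3.12, FDR = 0.0559).

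The 9 stem cell markers summed to between 2780 and 2950 CPM at 2 months and 2760 and 2980 at 22 months, sums made up mostly of Olfm4 and Slc12a2. By the quasi-likelihood test 0 of 9 had FDR under 0.05, and 6 of 9 had an unadjusted p under 0.05, against 16.9% of all genes. Lower values at 22 months were those of Axin2 (-0.46, FDR = 0.0511), Rnf43 (-0.41, FDR = 0.0876), Tnfrsf19 (-0.46, FDR = 0.258) and Sox9 (-0.28, FDR = 0.247), of which Axin2 and Rnf43 are known Wnt targets. Higher values were those of Ascl2 (0.33, FDR = 0.199) and Slc12a2 (0.25, FDR = 0.193). In the study's own list of genes that differed with age at FDR under 0.05, Axin2 and Rnf43 were lower and Slc12a2 was higher.

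Of the 8 leukocyte markers only Itgam was tested, and it rose from 10.2 and 13 CPM to 19.2 and 20.6 (log2 fold change 0.78, FDR = 0.0296). Without ISC_2mth replicate 1 its value was 0.62 (FDR = 0.307). The other 7 had at most 9 counts in any pool, 3 of them 0 in all. The list summed to 10.8 and 13.5 CPM in the young and 20.3 and 21.0 in the old pools, nearly all of it Itgam. The gate is meant to remove differentiated cells and leukocytes, and the part of any that remained in the Atoh1 values was not tested.

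**Figure D2:**
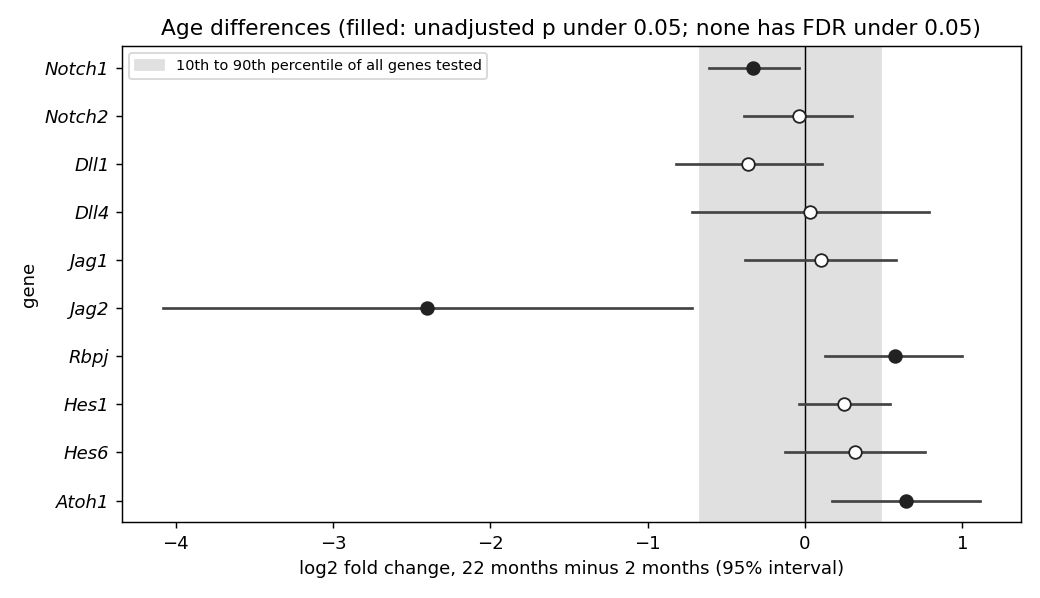
Log2 fold change of each gene (22 months minus 2 months, horizontal axis) with its 95% interval from the quasi-likelihood fit, beside the range from the 10th to the 90th percentile of all genes tested (-0.67 to 0.48, grey). The intervals of Notch1, Jag2, Rbpj and Atoh1 (filled points) leave out 0 before adjustment, and that of Jag2 is the widest.

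To compare levels between genes, normalized CPM was divided by the length of the exons of each gene in kb. This length joined the exons of all annotated transcripts, so it can exceed that of any 1 transcript and lower the value. For Rbpj it was 12.75 kb in 19 blocks. On this scale Hes1 was highest in every pool (18.1 to 23.4 CPM per kb), without overlap with the next gene. Hes6 followed with 5.15 to 7.34, Atoh1 with 3.29 to 7.10, Notch2 with 3.08 to 4.38, Notch1 with 2.38 to 3.25 and Dll1 with 2.40 to 3.80 CPM per kb. The ranges of neighbours in this run overlapped over the 4 pools. Notch2 was nevertheless above Notch1 in each of the 4 pools, and the range of Hes6 did not overlap those of Notch2, Notch1 or Dll1, whereas Hes6 and Atoh1, Atoh1 and Notch2, and Notch1 and Dll1 each changed order between pools. Jag1 lay below Dll1 without overlap (1.26 to 1.59), and overlapped Rbpj (0.709 to 1.30), which overlapped Dll4 (0.699 to 0.872). Jag2 was lowest, with 0.218 and 0.209 CPM per kb at 2 months and 0.0435 and 0.0353 at 22 months. All 4 ligands were thus below Hes1 in every pool.

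**Figure D3:**
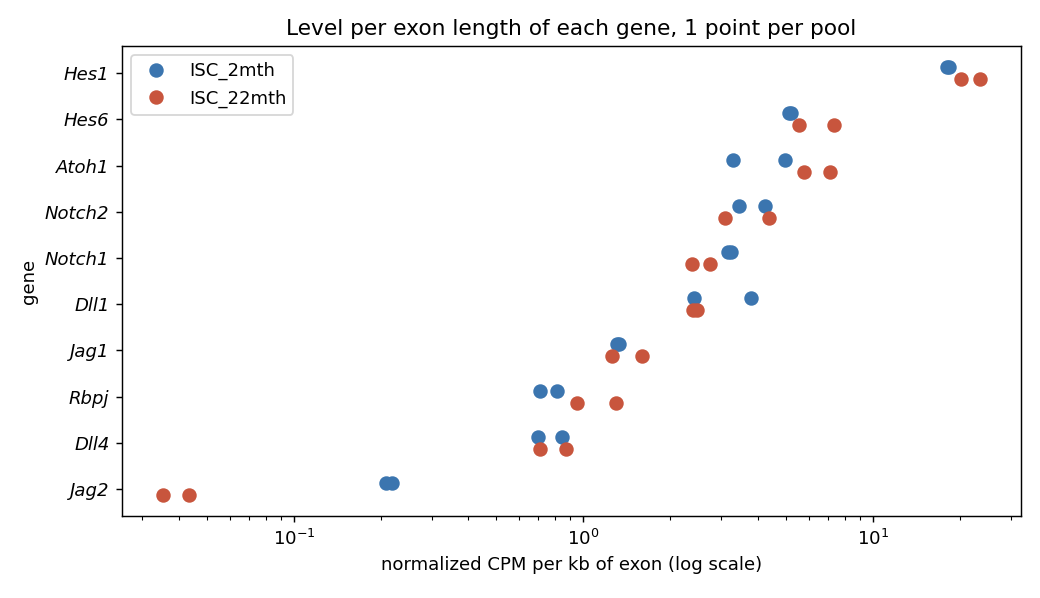
Normalized CPM per kb of exon (log axis) for each gene in each of the 4 pools (blue, ISC_2mth; red, ISC_22mth), ordered by the mean over pools. Hes1 lies alone at the top at 18.1 to 23.4, and Jag2 alone at the bottom, with its ages apart.

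The rest of the pathway was read from 5 further lists, of which 85 genes are reported here and 62 were tested. None of these 62 had FDR under 0.05 by the quasi-likelihood test, against 2.26% of all genes, and 8 had an unadjusted p under 0.05 (2 higher and 6 lower at 22 months, against 9.26% and 7.65% of all genes). Voom with sample quality weights and the likelihood ratio test each called 1, Spen, and DESeq2 called 0. The median log2 fold change was -0.07.

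Of the 20 nuclear cofactors tested and reported, 13 had values below 0 and 7 above, with 0 called (2.26% of all genes) and 4 at an unadjusted p under 0.05 by the quasi-likelihood test, a share close to the 16.9% of all genes. Spen, a corepressor that also binds RBPJ, had 1053 and 1272 counts at 2 months and 793 and 638 at 22 months (log2 fold change -0.48, FDR = 0.0616). Tle3, a Groucho-type corepressor recruited by HES factors, had -0.43 (FDR = 0.208). Maml1, the coactivator that joins RBPJ and the cleaved receptor, had 147 and 190 counts at 2 months and 97 and 107 at 22 months (log2 fold change -0.50, FDR = 0.250). Fhl1, an isoform of which binds RBPJ, had 6, 15, 21 and 31 counts in the order young then old, with a log2 fold change of 1.53 (FDR = 0.219).

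Among 23 genes for receptor processing and trafficking, 0 were called, against 2.26% of all genes. By the quasi-likelihood test 2 had an unadjusted p under 0.05, both lower at 22 months, a share close to the 7.65% of all genes. They were Psenen, a subunit of the gamma-secretase that releases the receptor (46 and 57 counts against 22 and 23, log2 fold change -0.97, FDR = 0.210), and Furin, which cuts the receptor during maturation (-0.50, FDR = 0.269). Dtx2, a Deltex ubiquitin ligase, had -0.83 (FDR = 0.344), and Numbl had only 15, 3, 3 and 0 counts. The median of this list was -0.07.

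Other receptors and ligands were nearly absent. Notch4 alone of 6 was tested, at 35, 21, 32 and 13 counts (log2 fold change -0.12, FDR = 0.939), and Notch3 had between 2 and 11 counts. Of 14 other HES and HEY factors and targets, 5 were tested and 0 were called, against 2.26% of all genes. By the quasi-likelihood test 1 had an unadjusted p under 0.05, against 16.9% of all genes. Hes2, Hes3, Hey2 and Helt had 0 counts in all pools. Olfm4, a stem cell gene known to depend on Notch, had 1300 and 1230 CPM at 2 months and 1110 and 1290 at 22 months (log2 fold change -0.08, interval -0.29 to 0.14). Myc had 0.24 (FDR = 0.288), Bhlhe40 -0.32 (FDR = 0.408) and Ccnd1 -0.23 (FDR = 0.431).

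Of 15 secretory fate factors that act beside or below Atoh1, 13 were tested and 0 called, against 2.26% of all genes. By the quasi-likelihood test 1 had an unadjusted p under 0.05, against 16.9% of all genes. The median log2 fold change of the list was -0.04. Sox9, needed for Paneth cells and present in stem cells, had 1631 and 1812 counts at 2 months and 1215 and 1223 at 22 months (log2 fold change -0.28, FDR = 0.247). Foxa1 had 0.32 (FDR = 0.321), Foxa3 -0.40 (FDR = 0.364) and Creb3l4 0.44 (FDR = 0.409). The values of this list lay on both sides of 0, 6 above and 7 below.

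**Figure D4:**
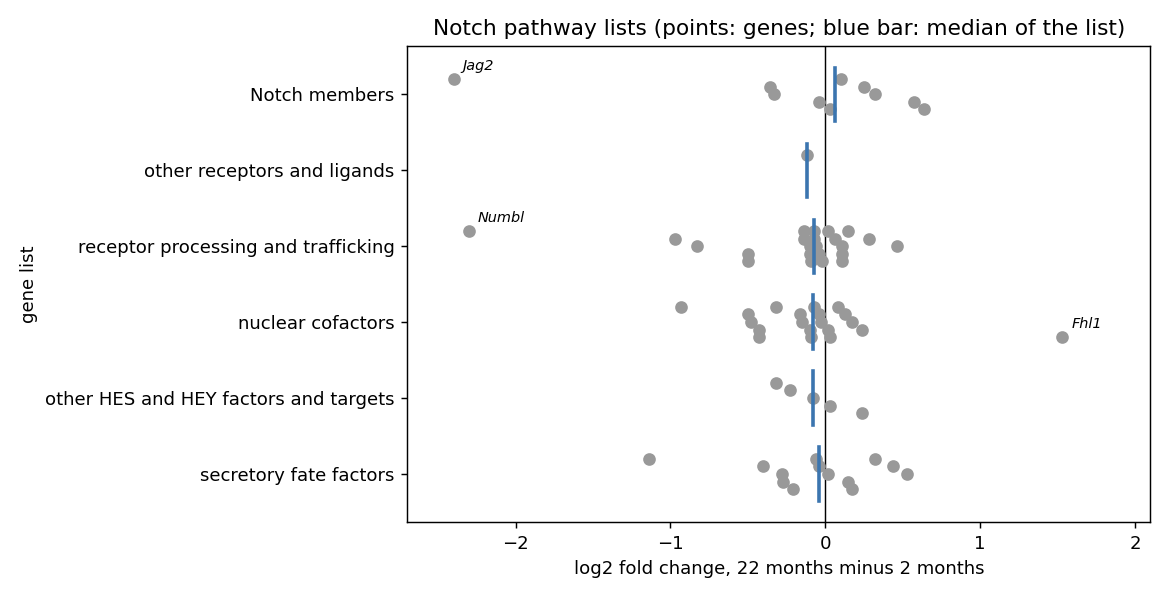
Log2 fold change (22 months minus 2 months, horizontal axis) of the 10 genes and of the 62 genes tested and reported from the 5 further lists, 1 point per gene, with blue bars for the list medians. No gene shown had FDR under 0.05, and the medians lie between -0.12 and 0.07.

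The direction of the age difference was compared over 15 alternatives in scaling, filter, test and libraries used. Notch1, Rbpj and Atoh1 kept their sign in all 15, and Jag2 in all 14 in which it was tested. Dll1, Hes1 and Hes6 kept it in 14 of 15, Jag1 in 13, and Notch2 and Dll4 in 12.

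**Figure D5:**
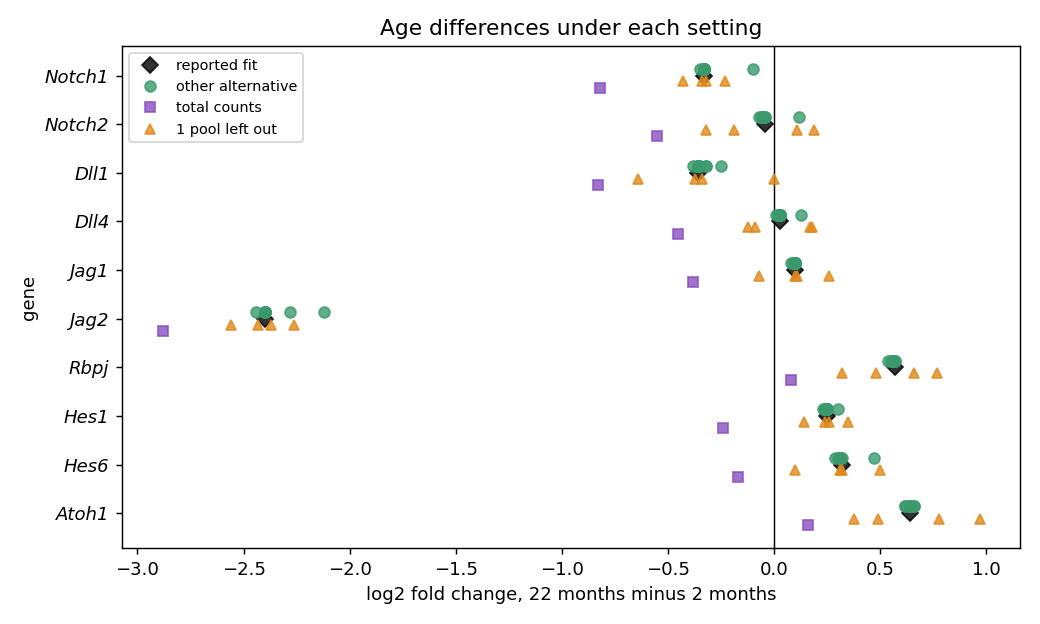
Log2 fold change of each of the 10 genes under the reported fit and the 15 alternatives (14 for Jag2). Jag2 stays between -2.88 and -2.12, whereas Notch2, Dll4 and Jag1 lie on both sides of 0 and total counts (squares) shift every gene down.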

How the data were processed

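RNA of sorted ISCs was measured in 4 libraries. Per the labels and the study's methods, the authors trimmed reads with Trimmomatic 0.30, aligned them with STAR 2.4.2a to GRCm38 and counted reads in exons of GENCODE vM15 genes with featureCounts, and deposited raw counts that were neither normalized nor filtered. Groups and replicate numbers came from the sample titles. The p-values set each age difference against the spread between these pools, estimated with help from all genes. The spread between single animals is not seen in them.

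Genes were kept where any pool exceeded 5 reads and 1 CPM, the filter of the study's methods. Ages were compared with edgeR 4.0.16 (R 4.3.3) by TMM, glmQLFit and glmQLFTest, two-sided, without covariates, and Benjamini-Hochberg adjustment ran over all 13692 genes. The 95% intervals used the quasi-likelihood F value and its degrees of freedom. An exact permutation test of 2 against 2 pools cannot give a p below 0.333 and was not run. Alternatives were limma 3.58.1 (voom with sample quality weights, a test the methods name), DESeq2 1.42.0 without independent filtering, the likelihood ratio test of edgeR (glmFit and glmLRT, also named there for comparing these ages), other scalings and filters, the replicate number as a block, offsets for GC content and length (lowess, span 0.3, for the 13236 genes matched by symbol to GENCODE vM21), and leaving out each pool. Exon lengths and positions came from GENCODE vM21, since vM15 was not used here. Replicate pools differed by more than sampling noise (chi-square per gene of 10.3 and 7.38). The fits were tested on simulated counts.

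The 10 genes and all lists were chosen with earlier results of these data known. All 10 genes are named, and of each further pathway list at most the 4 genes of lowest p. One gene of the pathway lists, which stayed in every fit, is not reported here. Genes named from the pathway lists at or near 0 counts, and the markers named, were chosen after their values were seen. No ranking of genes of similar pattern was made, as 4 pools do not separate patterns. As the amplification added no molecular identifiers, reads do not stand for separate molecules, and counting intervals and floors cover counting error only.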

Additional observations from a re-analysis of the deposited data

How the results depend on the processing

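The count of 0 among the 10 genes became 4 with total counts (Notch1, Notch2, Dll1 and Jag2, all lower), 1 without a filter on low counts and 1 by the likelihood ratio test (Jag2 in both), and lay between 0 and 2 with a pool left out (Rbpj and Atoh1 without ISC_22mth replicate 2). The count over all genes, 309, became 4650 with total counts, 554 without a filter, 611 by the likelihood ratio test, 197 by DESeq2, 623 with the replicate block, 174 with GC and length offsets, and between 147 (without ISC_2mth replicate 1) and 691 (without ISC_22mth replicate 2) with a pool left out. The count of 0 among the other pathway genes became 31 with total counts, 1 without a filter, 1 with at least 10 counts in every library, 1 by voom, 1 by the likelihood ratio test and 1 with the replicate block, and lay between 0 and 1 with a pool left out (1 without ISC_22mth replicate 1). Of 149 values of the 10 genes under the alternatives, 130 kept their direction and their side of the threshold, 8 passed it and 11 changed sign. The sign changes were those of Notch2 to 0.12 (offsets), 0.11 (without ISC_2mth replicate 1) and 0.19 (without ISC_22mth replicate 2), Dll1 to 0.00 (without ISC_2mth replicate 2), Dll4 to -0.45 (total counts), -0.09 (without ISC_2mth replicate 1) and -0.12 (without ISC_22mth replicate 2), Jag1 to -0.38 (total counts) and -0.07 (without ISC_22mth replicate 2), Hes1 to -0.24 and Hes6 to -0.17 (both total counts). Total counts shift all genes by construction, and the cause of the other changes was not tested. With a pool left out, values ran from -0.32 to 0.19 for Notch2, from -0.64 to 0.00 for Dll1, from -0.12 to 0.18 for Dll4 and from -0.07 to 0.26 for Jag1. With at least 10 counts in every library Jag2 was not tested.

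Replicate numbers mark different animals at each age. The replicate differences of both ages correlated at -0.0262 over 6128 genes, which are not independent replicates. This correlation cannot show whether pools of the same number were processed together, and that was not tested. With the replicate block, 0 of the 10 genes were called. A fit without 1 pool leaves 1 age with a lone pool, which is assumed to vary like the others. Low counts limit Jag2 and Dll4, whose intervals are the widest.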
